A study of Mus musculus with 2 samples.

Results

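ER-associated degradation was described through 9 genes (Sel1l, Syvn1, Edem1, Herpud1, Derl1, Derl2, Derl3, Os9 and Creld2) out of the 27998 genes counted in droplet single-cell RNA sequencing of WT mouse islets. The genes were chosen by name, with earlier results of these data known, and all 9 were found once in the gene list. They were read in 4547 cells of 1 library, and the cells were classed by the share of their UMIs (unique molecular identifiers, each standing for 1 captured transcript) that came from hormone genes. Beta cells had at least 30% insulin UMIs (Ins1 and Ins2 together, 3258 cells), alpha cells at least 8% Gcg (423 cells), delta cells at least 3% Sst (137 cells) and PP cells at least 8% Ppy (117 cells). A further 549 cells met none of these limits and 63 met more than 1, and the latter were left out of every class.

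The islets came from WT males aged 8 weeks after a fast of 12 hours, and 10x Genomics 3′ v2 chemistry was used. A second group of islets, labelled miR-203 TG with the transgene in beta cells, was not analysed here. How many animals gave the WT islets is not given in the sources used here, and the labels' extraction text describes sorted goblet cells of the gut, which does not match the islet hormones found. With 1 library there is no replicate, so no p-value is given, and the intervals printed are exact, at 95%, and cover no error but that of counting. The matrix held 118523180 UMIs, of which 104708672 lay in the cells kept, with a median from 9020.0 UMIs in delta cells to 23414 in beta cells.

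Proteins that fail to fold in the endoplasmic reticulum (ER) are recognised there, passed through the membrane, tagged with ubiquitin and degraded by the proteasome in the cytosol. The ubiquitin ligase HRD1 (encoded by Syvn1) and its partner SEL1L form the core of the best known route, and misfolded proinsulin is among its substrates in beta cells. Several of these genes are induced by the unfolded protein response, the signalling that adjusts the folding capacity of the ER to its load.

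The start regions of the members are shown because the factors of that response bind short motifs close to the transcript start. A promoter window of 250 bases before to 50 after the start was found in the RefSeq table (GRCm38.p6, the build the labels call mm10) for 8 of the 9 members, all but Derl1. The ER stress response element (ERSE, which is CCAAT, 9 bases of any kind and CCACG), ERSE-II (ATTGG, 1 base of any kind and CCACG) and the core of the unfolded protein response element (TGACGTGG) were searched on both strands. An ERSE lay in the windows of Syvn1, Derl3 and Creld2 and an ERSE-II in that of Herpud1, and each match is in capitals here.
Syvn1: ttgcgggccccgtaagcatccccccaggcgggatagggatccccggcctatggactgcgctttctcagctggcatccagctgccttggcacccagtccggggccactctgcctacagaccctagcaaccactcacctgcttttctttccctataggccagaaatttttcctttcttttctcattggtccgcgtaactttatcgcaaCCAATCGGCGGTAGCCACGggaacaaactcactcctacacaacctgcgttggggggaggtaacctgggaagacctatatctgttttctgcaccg
Herpud1: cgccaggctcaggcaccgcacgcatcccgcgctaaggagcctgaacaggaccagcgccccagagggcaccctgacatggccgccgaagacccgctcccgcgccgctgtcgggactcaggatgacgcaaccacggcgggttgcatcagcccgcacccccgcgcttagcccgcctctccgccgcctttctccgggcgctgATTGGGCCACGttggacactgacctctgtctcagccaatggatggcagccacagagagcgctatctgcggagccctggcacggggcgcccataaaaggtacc
Derl3: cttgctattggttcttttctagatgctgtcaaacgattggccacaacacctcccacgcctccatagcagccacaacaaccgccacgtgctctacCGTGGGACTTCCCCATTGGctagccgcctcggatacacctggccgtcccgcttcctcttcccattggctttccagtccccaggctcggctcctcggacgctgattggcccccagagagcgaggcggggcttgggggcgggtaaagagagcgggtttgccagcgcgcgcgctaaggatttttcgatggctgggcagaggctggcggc
Creld2: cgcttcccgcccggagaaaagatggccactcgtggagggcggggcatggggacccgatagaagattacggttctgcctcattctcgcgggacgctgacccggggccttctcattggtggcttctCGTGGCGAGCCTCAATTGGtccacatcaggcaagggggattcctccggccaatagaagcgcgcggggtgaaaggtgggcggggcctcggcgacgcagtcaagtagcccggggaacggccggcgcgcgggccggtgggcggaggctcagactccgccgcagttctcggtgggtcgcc

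These windows lie at chr19:6046326-6046625 (plus strand) for Syvn1, chr8:94386179-94386478 (plus strand) for Herpud1, chr10:75893148-75893447 (plus strand) for Derl3 and chr15:88819396-88819695 (plus strand) for Creld2. With the start base counted as 0, the match ran from -44 to -26 in Syvn1, from -52 to -42 in Herpud1, from -156 to -138 in Derl3 and from -126 to -108 in Creld2, where the last 2 were on the opposite strand. No match of the 3 motifs was found in the windows of Sel1l, Edem1, Os9 or Derl2 (2 windows). The Edem1 window (chr6:108828391-108828690) lies inside the gene span given below, so the bases at the first end of that span were not searched. Among 32851 windows of all genes, 0.119% held an ERSE, 0.0365% an ERSE-II and 0.676% the third motif. At least 1 of them was present for 4 of 8 members (50%), 7 of 10 ER chaperones with a window and 239 of 27025 genes (0.884%). It was present for 1 of 8 other genes of recognition, 1 of 11 membrane ligases and partners, 1 of 15 extraction genes and 0 of 7 stress sensors and factors. A match is a description of the letters and not evidence of binding.

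Levels are UMIs per 1000000 UMIs of genes other than the islet hormones Ins1, Ins2, Iapp, Gcg, Sst, Ppy and Pyy, written UPM. On this scale all 9 members stood higher in beta than in alpha, delta and PP cells, but over all UMIs Os9 stood lower in each comparison and Derl1 lower against delta cells. Together the 9 made up 3367 UPM in beta cells (3348 to 3386), 990.1 in alpha (963 to 1018), 1264 in delta (1201 to 1329) and 1186 in PP cells (1129.9 to 1244). Per cell this was a mean of 37.3 UMIs of the 9 genes in a beta cell and 11.6 in an alpha cell. In cells of 2 further kinds, picked out from the cells below every limit after the data were seen, the sum was 659.9 UPM in 60 macrophage-like cells and 739 in 94 endothelial-like cells. These had at least 0.5% of their UMIs in 7 macrophage markers (C1qa and others) or 6 endothelial markers (Pecam1 and others), all of which were detected.

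**Figure D1:**
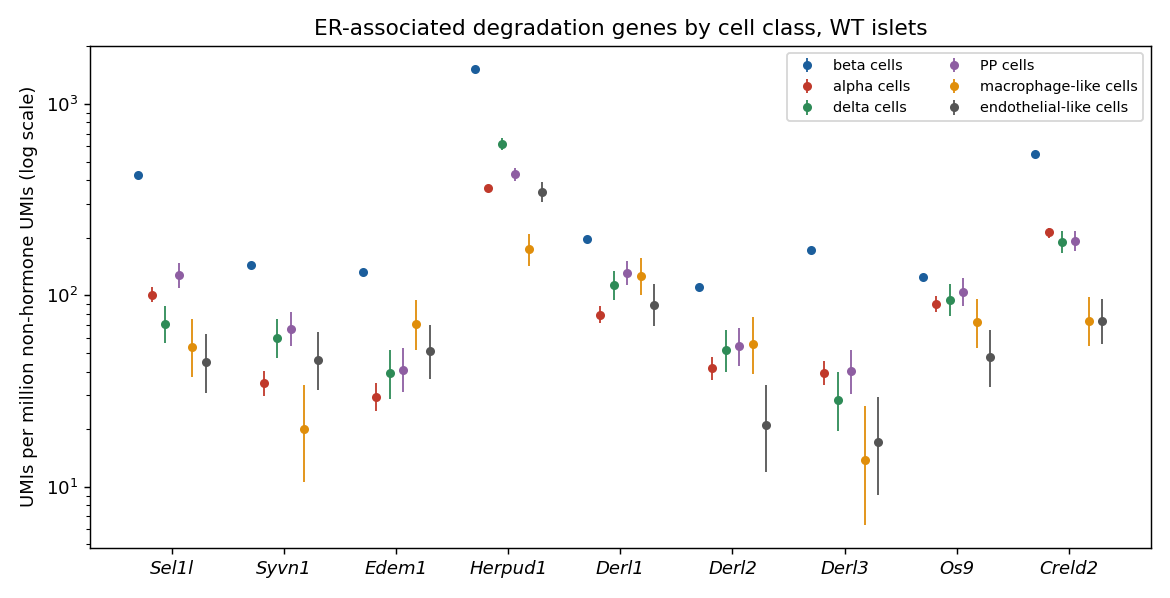
UMI level of each gene in UPM (log axis) in 6 classes of WT islet cells, where points are the levels of summed counts and bars are 95% Poisson intervals for counting error. Beta cells have the highest value of the 6 classes for each of the 9 genes in UPM and for 5 of them over all UMIs (not for Edem1, Derl1, Derl2 and Os9). The Os9 interval of beta cells (122 to 129) overlaps that of PP cells (88.3 to 123).

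Against alpha cells, 8 of the 9 members were over 1.5-fold higher in beta cells, where 33.9% of the 6700 genes tested were (those of at least 20 UPM in either class). Over delta cells the count was again 8 of 9, against 18.7% of 7087 genes, and over PP cells 8 of 9, against 20.2% of 6838 genes. No member was 1.5-fold lower in any of these comparisons, while 8.52%, 16.3% and 11.2% of the genes tested were. The median member ratio was 4.13 against alpha cells (all genes 1.28), 2.46 against delta cells (all genes 1.01) and 2.85 against PP cells (all genes 1.08). All 9 members reached 20 UPM on both sides of each comparison. The 3 comparisons share the beta cells.

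The scale matters for these ratios, since hormones take the largest share of UMIs in beta cells. Non-hormone UMIs were 43.3% of the total in beta, 71.0% in alpha, 77.4% in delta and 55.7% in PP cells. Counted over all UMIs, every ratio is lower by 0.71 (alpha), 0.84 (delta) or 0.36 (PP) on the log2 scale, and the median gene moves from 0.36 to -0.36, from 0.02 to -0.82 and from 0.11 to -0.25. On that scale 8 of 9 members were over 1.5-fold higher against alpha cells, where 9.16% of genes were higher and 33.9% lower. The counts became 4 of 9 against delta cells (4.04% of genes higher, 65.4% lower) and 7 of 9 against PP cells (9.30% higher, 26.8% lower). Relative to the median gene the count was 8, 8 and 7 of 9, for which no share over all genes is given. Over all UMIs, beta cells had the highest value of the 6 classes for Sel1l, Syvn1, Herpud1, Derl3 and Creld2. Macrophage-like cells had it for Derl1 (121, 96.2 to 150.2, against 85.5 in beta cells) and, with overlapping intervals, for Edem1 and Derl2, and delta cells had it for Os9 (73.6 against 54.2).

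**Figure D2:**
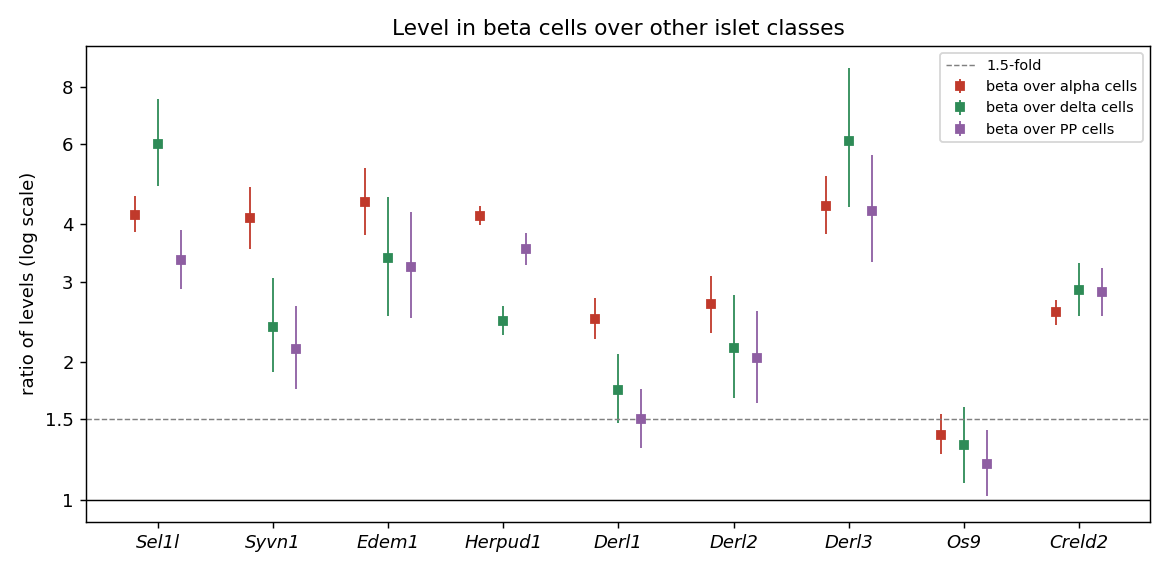
Ratio of the level in beta cells to that in alpha, delta or PP cells for each gene (log axis), with 95% exact binomial intervals and a dashed line at 1.5-fold. Sel1l, Edem1 and Derl3 reach at least 3.23 in each comparison, while Os9 lies between 1.20 and 1.39 and falls below 1 in each when all UMIs are the base, as does Derl1 against delta cells. Free RNA could give up to 82.6% of the Derl3 level of delta and 75.5% of that of PP cells, and 52.5% of the Sel1l level of delta cells.

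The 2 core genes of the ligase complex differed in how they were spread over the other classes. Sel1l (ENSMUSG00000020964, chromosome 12, 91806043 to 91849157), which encodes the adaptor that holds the complex together, stood at 425 UPM in beta (418 to 432), 127 in PP (109 to 147), 101 in alpha (92.4 to 110.3) and 70.9 in delta cells (56.6 to 87.6). It was 53.8 in macrophage-like and 44.8 in endothelial-like cells, whose intervals overlap each other. The beta level was 4.20-fold that of alpha (3.85 to 4.61), 6.0-fold that of delta (4.85 to 7.51) and 3.34-fold that of PP cells (2.89 to 3.90).

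Syvn1 (ENSMUSG00000024807, chromosome 19, 6046576 to 6053718), the ligase itself, stood at 144 UPM in beta (139.8 to 148), 67.1 in PP (54.3 to 82.0), 60 in delta (47.0 to 75.6) and 34.8 in alpha cells (29.8 to 40.5). Of the endocrine classes, alpha cells were lowest for the ligase (alpha over delta 0.580, 0.438 to 0.775) and delta cells for its adaptor (alpha over delta 1.43, 1.13 to 1.82). The beta level was 4.13-fold that of alpha (3.54 to 4.83), but 2.39-fold that of delta (1.90 to 3.06) and 2.14-fold that of PP cells (1.75 to 2.65). The end of Syvn1 overlaps that of Mrpl49 (from 6053630), and whether counting used strand is not given in the sources used here, so reads near that end cannot be assigned with certainty. Mrpl49 itself stood at 28.2 UPM in beta and 18.8 in alpha cells.

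The number of Sel1l UMIs per Syvn1 UMI was not the same in every class. It was 2.96 in beta (2.86 to 3.05) and 2.90 in alpha cells (2.43 to 3.47), against 1.89 in PP (1.47 to 2.46) and 1.18 in delta cells (0.852 to 1.64). The delta value rests on 85 and 72 UMIs. Its interval lies below those of beta and alpha cells and overlaps that of PP cells.

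The derlins are membrane proteins that help to move misfolded proteins out of the ER, and the 3 of them differed in their spread. Derl3 (ENSMUSG00000009092, chromosome 10, 75893398 to 75895941) was the most uneven, at 173 UPM in beta (169 to 177), 40.2 in PP, 39.3 in alpha and 28.4 in delta cells (19.6 to 39.6), with ratios of 4.29 (3.31 to 5.68), 4.4 (3.81 to 5.10) and 6.10 (4.36 to 8.81). Most of its level in delta and PP cells could be free RNA, as given below. Derl1 (ENSMUSG00000022365, chromosome 15, 57869502 to 57892418) stood at 197 UPM in beta (193 to 202), 131 in PP, 113 in delta and 79.2 in alpha cells (71.5 to 87.5). Its beta level was 2.49-fold that of alpha (2.25 to 2.76) and 1.5-fold that of PP cells (1.30 to 1.75). Against delta cells its ratio was 1.74 (1.47 to 2.08), which became 0.973 over all UMIs.

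Derl2 (ENSMUSG00000018442, chromosome 11, 71007440 to 71019841) lay between these, at 111 UPM in beta (108 to 115), 54.4 in PP, 51.7 in delta and 41.5 in alpha cells (36.0 to 47.6). The intervals of these last 3 classes overlap their neighbours in the order. Its ratios were 2.04 (PP), 2.15 (delta) and 2.68 (alpha).

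Herpud1, an ER membrane protein that binds the ligase complex and is itself quickly degraded, had the most UMIs of the members in every class. Herpud1 (ENSMUSG00000031770, chromosome 8, 94386429 to 94395371) stood at 1513 UPM in beta (1501 to 1526), 615 in delta (572 to 661), 428 in PP (395 to 464) and 362 in alpha cells (345 to 379). The median beta cell held 15.0 Herpud1 UMIs, 10 in 100 beta cells held 29.0 or more, and the highest held 83.0. Delta cells, low for Sel1l, were here above PP and alpha cells beyond counting error (alpha over delta 0.588, 0.539 to 0.641). The beta level was 4.18-fold that of alpha (3.99 to 4.39), 2.46-fold that of delta (2.29 to 2.65) and 3.53-fold that of PP cells (3.26 to 3.83).

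Edem1 and Os9 act on the sugar chains of misfolded glycoproteins, Edem1 by promoting their trimming and Os9 as a lectin that brings the trimmed proteins to SEL1L. Edem1 (ENSMUSG00000030104, chromosome 6, 108824045 to 108859356) stood at 132 UPM in beta (129 to 136), 40.9 in PP, 39.2 in delta and 29.6 in alpha cells (25 to 34.8), and was 4.47-fold higher in beta than in alpha cells (3.79 to 5.31). It was the 1 member for which macrophage-like (70.8) and endothelial-like cells (51.3) both had higher values than alpha, delta and PP cells, by 2.39-fold (1.68 to 3.35) and 1.74-fold (1.19 to 2.49) against alpha cells.

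Os9 differed least between beta and the other endocrine classes. Os9 (ENSMUSG00000040462, chromosome 10, 127094259 to 127121160) stood at 125 UPM in beta (122 to 129), 104 in PP (88.3 to 123), 95.1 in delta (78.4 to 114) and 89.9 in alpha cells (81.8 to 98.7), each overlapping the next. Its ratios of 1.39 (alpha), 1.32 (delta) and 1.20 (PP) became 0.849, 0.737 and 0.931 over all UMIs, so no direction is given for it. It stood at 72.3 UPM in macrophage-like (53.1 to 96.1) and 47.4 in endothelial-like cells (33.2 to 65.6), which is 2.64-fold below beta cells (1.90 to 3.77) in the latter.

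Creld2 encodes a stress-induced ER protein with thioredoxin-like activity and is grouped with this pathway here. Creld2 (ENSMUSG00000023272, chromosome 15, 88819646 to 88826681) stood at 546 UPM in beta (539 to 554), 213 in alpha (200.2 to 226), 192 in PP (169.9 to 216) and 190.1 in delta cells (166 to 216). The 3 lower endocrine classes were close, and their intervals overlap. The beta level was 2.57-fold that of alpha (2.41 to 2.73), 2.87-fold that of delta (2.52 to 3.29) and 2.85-fold that of PP cells (2.52 to 3.22). Alg12, whose start lies 328 bases from that of Creld2, stood at 13.4 UPM in beta and 8.30 in alpha cells.

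Free RNA from broken cells reaches every droplet, and it was rich in these transcripts. Droplets of at most 200 UMIs held 2913 UPM of the 9 genes, among them 1227 of Herpud1 and 204 of Derl3. If all Ins2 in the other classes is free RNA, it could give up to 24.4% of the Sel1l level of alpha and 52.5% of that of delta cells, but 8.49% and 12.1% for Os9. For Derl3 it could give up to 39.5% in alpha, 82.6% in delta, 75.5% in PP and 75.0% in macrophage-like cells. Derl3 in delta, PP and macrophage-like cells is therefore not read as expression, and its ratios against delta and PP cells depend on that background. With the free RNA taken off, the count over 1.5-fold stayed at 8 of 9 in each of the 3 comparisons, and Derl3 moved to 30.2 against delta and 14.6 against PP cells. Each of these 8 members stood higher in the droplets than in alpha, delta and PP cells. Taking the free RNA off thus lowers their levels in those classes by construction, and the unchanged count is no check of it.

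With each cell thinned to 5000 non-hormone UMIs, the share of cells with a UMI differed more between the endocrine classes for Sel1l than for Os9. Sel1l was seen in 82.6% of 3149 beta cells (81.3 to 83.9, unthinned 93.7%), 44.3% of 115 PP (35.1 to 53.9, unthinned 65%), 37.9% of 422 alpha (33.3 to 42.7, unthinned 63.1%) and 26.3% of 137 delta cells (19.1 to 34.5, unthinned 34.3%). Os9 was seen in 46.2% of beta (44.5 to 48.0, unthinned 70.2%), 43.5% of PP (34.3 to 53.0, unthinned 69.2%), 37.0% of alpha (32.3 to 41.8, unthinned 60.8%) and 35% of delta cells (27.1 to 43.6, unthinned 50.4%). Thinning left out 109 beta, 2 PP, 1 alpha and 0 delta cells. No islet class is known to lack these genes, so the non-endocrine cells are given for reference only. Macrophage-like cells were at 25% for Sel1l and 33.3% for Os9, close to delta cells, and endothelial-like cells at 16.0% and 21.3%.

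The other genes of the pathway are given on the same scale, so each ratio is lower over all UMIs by the shifts given above. Of 9 further genes of recognition and folding, 6 were over 1.5-fold higher in beta than in alpha cells, led by Uggt1, which senses misfolded glycoproteins (3.34, 2.89 to 3.89), and Sdf2l1 (2.87, 2.70 to 3.06), with Dnajc10 (1.33) and Man1b1 (1.30) lowest. Among 17 tested membrane ligases and their partners, 3 were, led by Rnf185 (3.94, 3.08 to 5.12) and Aup1 (2.10), with Ube2g2 (0.958) and Rnf5 (0.950) lowest. Of 21 genes that extract and deliver the substrates, 7 were, led by Svip, a small inhibitor of this pathway (5.16, 4.43 to 6.06), and Ube4a (2.26), with Stub1 and Yod1 both at 0.923. None of these genes was 1.5-fold lower. The share over all genes tested was 33.9%, so the count of the ligases lay below it and that of the extraction genes near it. The list medians were 1.80, 1.20 and 1.20, beside 1.28 over all genes tested.

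Against delta cells the same lists had 4 of 9, 4 of 17 and 3 of 21 over 1.5-fold higher, where 18.7% of all genes were, with medians of 1.49, 0.990 and 1.07 (all genes 1.01). Svip again led the extraction genes (3.17, 2.49 to 4.11), and Herpud2, a relative of Herpud1, was the 1 gene over 1.5-fold lower in beta cells (0.512, 0.399 to 0.667). Against PP cells the counts were 4 of 9, 3 of 17 and 3 of 21, where 20.2% of all genes were higher, with medians of 1.34, 0.934 and 0.957 (all genes 1.08). The counts of the ligases and extraction genes thus lay near or below the share over all genes in both comparisons. Rnf5 (0.674) and Herpud2 (0.688) were lowest there.

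Of 7 tested sensors and factors of the stress response, 4 were over 1.5-fold higher in beta than in alpha, 3 than in delta and 2 than in PP cells, and none was 1.5-fold lower. The shares over all genes were 33.9%, 18.7% and 20.2%, so the count against PP cells lay near the share over all genes. Ddit3, a transcription factor of prolonged ER stress, stood at 1128 UPM in beta and 207 in alpha cells (5.44-fold, 5.11 to 5.79), and Ern1, the sensor that splices Xbp1 RNA, at 85.3 and 34.4 (2.48-fold, 2.12 to 2.91). Xbp1 itself stood at 502 in beta, 461 in alpha and 622 in delta cells. Its ratios of 1.09 (1.04 to 1.14) and 0.808 (0.750 to 0.870) are of total Xbp1 RNA, as a 3′ count does not tell spliced from unspliced RNA. Of 12 ER chaperones, 9 were over 1.5-fold higher against alpha (median 1.80), 11 against delta (1.76) and 9 against PP cells (1.90), beside the same shares over all genes, led by Hyou1 (3.14), Calr (3.43) and Pdia4 (3.31) in turn.

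The members were also compared by insulin share, between 391 cells with 20 to under 35% insulin and 391 cells with 60% or more. The former include 200 cells below the beta limit of 30%. The low-insulin cells had a median of 13762 non-hormone and 21094 total UMIs, and the high-insulin cells 10816 and 34322. Their median share of mitochondrially encoded UMIs was 5.33% against 2.08%, and values within a narrow range of that share are given below. Markers of other endocrine cells stood higher in the low-insulin cells, with all of the 7 alpha, 6 delta and 2 PP markers detected in both groups. They made up 0.840% against 0.315% of UMIs for alpha, 0.196% against 0.0247% for delta and 0.766% against 0.207% for PP markers, and the median cell had 0.334% against 0.291%, 0.0268% against 0.0170% and 0.272% against 0.199%. The part of such cells or their RNA in the values that follow was not tested.

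Syvn1 was over 1.5-fold higher in the low-insulin cells (176 against 102 UPM, 1.73, 1.54 to 1.94), and the other 8 members were not. The share, 1 of 9, compares with 20.2% of 6899 genes tested, so it is no result about the members. Edem1 (1.48, 1.31 to 1.67), Sel1l (1.40, 1.31 to 1.5), Herpud1 (1.27, 1.22 to 1.31) and Creld2 (1.24, 1.17 to 1.32) lay above 1 as well. Derl1 (1.13), Derl3 (1.05), Derl2 (0.897) and Os9 (0.895) lay close to it, and the median member stood at 1.24 against 1.13 over all genes. No member was 1.5-fold lower, as 13.1% of genes were.

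This comparison depended on the cells and on the scale. Over all UMIs, all 9 members were over 1.5-fold higher in the low-insulin cells, where 83.2% of genes were higher and 0.319% lower. Among cells with 2 to 4% mitochondrial UMIs (93 and 194 cells), a limit chosen after the data were seen, Syvn1 stood at 1.14 and Sel1l at 0.922. Among cells with 5000 to 10000 non-hormone UMIs (40 and 115 cells) they stood at 1.31 and 0.934. The call for Syvn1 did not hold in either set, nor among cells of at most 40000 UMIs (1.45).

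Over 10 bins of insulin share, Syvn1, Sel1l, Herpud1 and Edem1 were lower in the upper bins, and Creld2 and Derl3 were lower at the upper end. Syvn1 stood at 183 UPM at 30 to 35% insulin, 145 at 50 to 55%, 112 at 60 to 65% and 75.6 above 65%. Sel1l stood at 477, 419.5, 346 and 316 in the same bins, Herpud1 at 1641, 1529, 1287 and 1079.6, and Edem1 at 156, 145, 101 and 94.5. Creld2 was highest at 50 to 55% (588) and stood at 319 above 65%, where Derl3 stood at 124 against 188. In the first bin (20 to 25%) Derl3 (122), Creld2 (489.6) and Herpud1 (1393) were also below their middle bins, so they did not fall throughout. Syvn1 stood at 163 there, Sel1l at 473 and Edem1 at 146. Derl2 ran from 100.5 to 119 over the bins and Derl1 from 176 to 213. Os9 was lowest at 40 to 45% (110.1, 101 to 120.2) and highest at 60 to 65% (138, 125 to 152). The last bin holds 118 cells, and the median mitochondrial share ran from 5.60% in the first bin to 1.81% in the last.

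**Figure D3:**
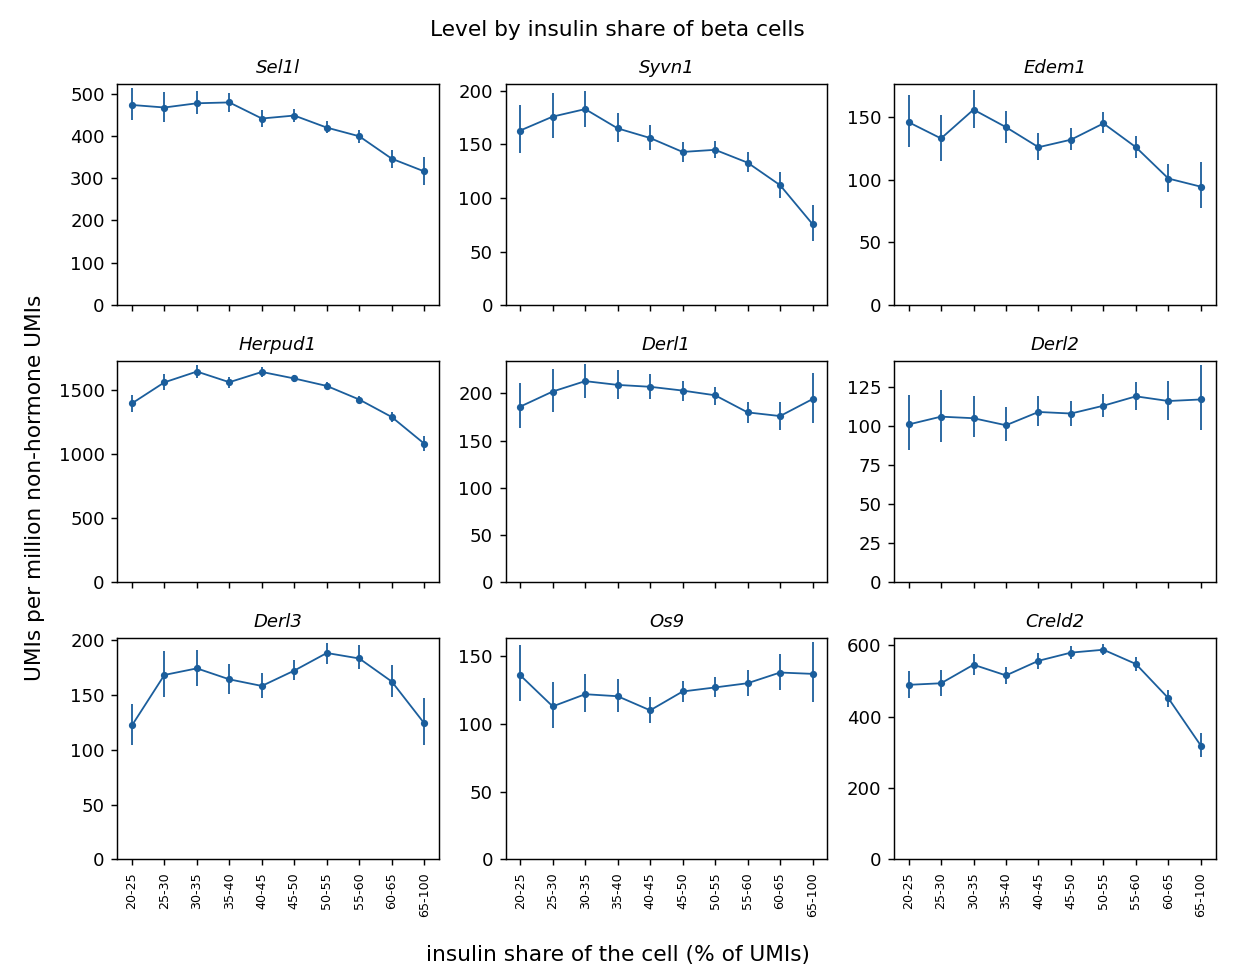
UMI level in UPM in 10 bins of insulin share (percent of a cell's UMIs) over cells that met no other hormone limit, with 95% Poisson intervals; the bins below 30 lie outside the beta class. Syvn1 ends at 75.6 and Creld2 at 319 in the last bin, while Derl2 runs from 100.5 to 119 and Os9 from 110.1 to 138.

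Beta cells also differed in Hspa5, the main chaperone of the ER lumen, and the members differed along with it unequally. The 3258 beta cells were ranked by Hspa5 per non-hormone UMI and divided into 4 groups of 814 or 815 cells. In the highest against the lowest group, 4 of 9 members were over 1.5-fold higher, where 1.5% of 6616 genes were, Hspa5 itself (2.43) included. The 4 were Creld2, Syvn1, Herpud1 and Derl3. They are also the 4 members whose promoter window held an ERSE or ERSE-II, but the other lists held genes of both kinds. Of 9 tested genes of the other lists with a match to 1 of the 3 motifs, Calr (1.52) and Dnajb11 (1.53) passed 1.5-fold, and 7 did not (Hsp90b1 1.46, Ube2j1 1.29, Vcp 1.24, Dnajc3 1.20, Txndc11 1.15, Pdia6 1.14 and Canx 1.12). Of the genes with no match found, Eif2ak3 (1.72), Pdia4 (1.70) and Sdf2l1 (1.55) passed and 54 did not. These take in listed genes without a promoter window, in which no motif could be searched.

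Creld2 stood at 385, 507, 619 and 694 UPM from the lowest to the highest group, a ratio of 1.81 (1.73 to 1.88). Herpud1 stood at 1146, 1439, 1616 and 1901 (1.66, 1.62 to 1.70). Syvn1 stood at 106, 139, 158 and 177 (1.67, 1.54 to 1.81), and Derl3 at 129, 166, 197 and 205 (1.59, 1.48 to 1.72). The value of each gene was higher in each group than in the one before it, although the last 2 intervals of Derl3 overlap.

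Sel1l stood at 343 UPM in the lowest and 475 in the highest group (1.39, 1.32 to 1.45), and Edem1 at 109.8 and 144 (1.31, 1.21 to 1.43). Derl1 (1.20, 1.12 to 1.28) and Derl2 (1.09, 1.00 to 1.20) differed less. Os9 stood at 125, 126, 126 and 123, a ratio of 0.989 (0.909 to 1.08). The median over all genes tested was 1.04, and no member was 1.5-fold lower, as 0.317% of genes were.

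The lowest and highest groups had median insulin shares of 52.5% and 49.8% and median mitochondrial shares of 2.87% and 3.42%. Such medians do not show that the groups were matched in insulin, and values within a narrow range of it follow. Their median non-hormone UMIs were 11012 and 9371. Within beta cells of 45 to 55% insulin (362 and 363 cells), a limit chosen after the data were seen, 1 of 9 members passed 1.5-fold, with Creld2 at 1.57, Herpud1 at 1.43, Syvn1 at 1.38, Derl3 at 1.35 and Os9 at 1.01. The share of all genes past 1.5-fold within that range is not given here, so this count is not read as a result about the members. Among cells of at most 40000 UMIs Derl3 stood at 1.45.

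**Figure D4:**
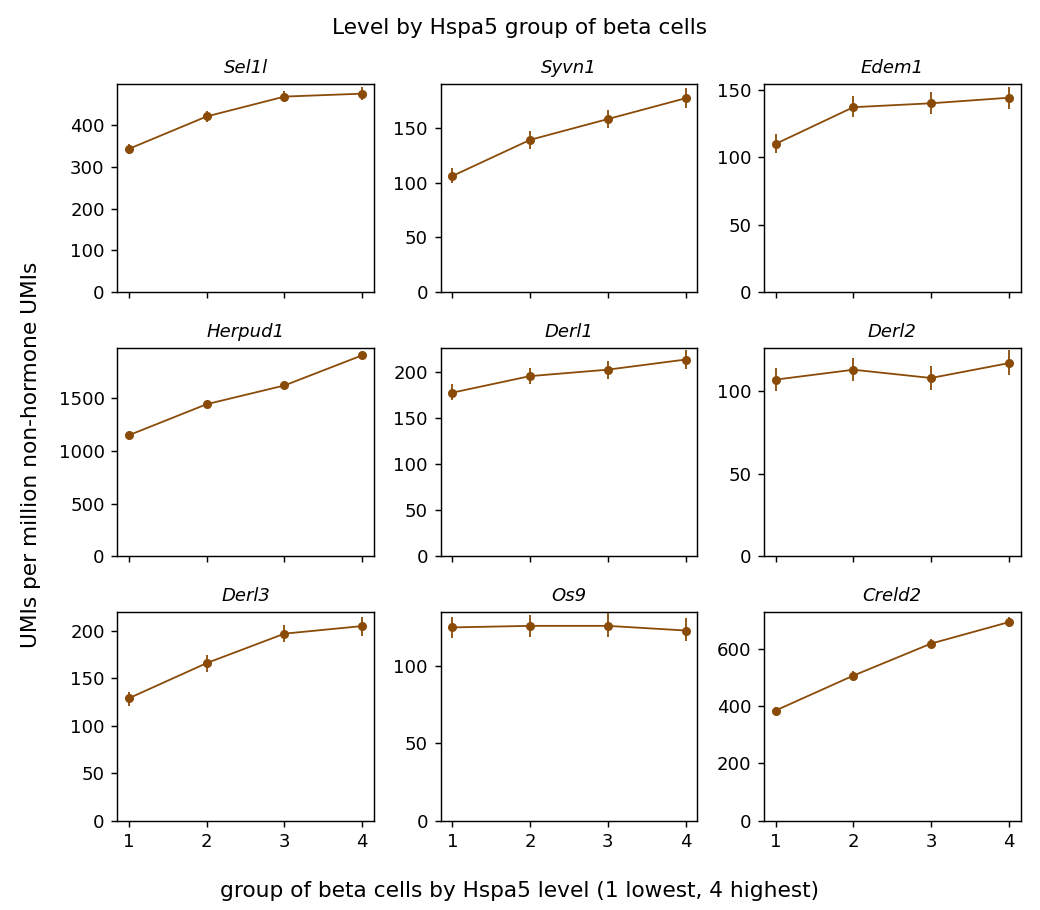
UMI level in UPM in 4 groups of beta cells ranked by their Hspa5 level (1 lowest, 4 highest), with 95% Poisson intervals. Creld2 goes from 385 to 694 and Os9 from 125 to 123.

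Members also differed in their cell-to-cell spread. At 5000 non-hormone UMIs per beta cell, the variance of the UMI count was 2.33 times the mean for Creld2, 2.23 for Herpud1, 1.58 for Derl3, 1.52 for Sel1l, 1.28 for Syvn1 and 1.18 for Edem1. For Derl1, Os9 and Derl2 it was 1.09, 1.05 and 1.02, close to the value of 1 that counting alone gives. Expressed as the squared relative spread left after counting noise, Derl3 (0.652), Creld2 (0.464) and Syvn1 (0.385) were highest. Edem1 (0.278), Sel1l (0.242) and Herpud1 (0.161) followed, and Derl1 (0.0915), Os9 (0.0853) and Derl2 (0.0286) were lowest.

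Over the 3258 beta cells, 5 of the members varied together weakly, as a description of cells of 1 library that share depth and a common base. Pearson's r of log2 levels was 0.31 for Herpud1 with Creld2, 0.26 for Herpud1 with Derl3, 0.26 for Derl3 with Creld2 and 0.25 for Sel1l with Creld2. All 36 pairs of members lay between -0.02 and 0.31, with a median of 0.06. The 10 pairs among Sel1l, Syvn1, Herpud1, Derl3 and Creld2 lay between 0.15 and 0.31. Those with Derl2 or Os9 (15 pairs) lay between -0.02 and 0.05. These sets of pairs were not fixed beforehand, so the gap between them is a description only. Pairs outside both sets include Sel1l with Edem1 (0.12) and Creld2 with Derl1 (0.10). At 5000 non-hormone UMIs per cell the 10 pairs lay between 0.08 (Syvn1 with Derl3) and 0.22 (Herpud1 with Creld2), with Sel1l and Syvn1 at 0.09 (0.18 before thinning), and the 15 pairs between -0.05 and 0.02. Counts are sparse, so values near 0 are no finding.

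Of 3583 other genes with a mean of at least 0.5 UMI per beta cell, those most like the sum of the members were Hspa5 (r = 0.48), Sdf2l1 (0.42), Calr (0.39), Hsp90b1 (0.34), Jund and Rbm15b (both 0.29), Manf and Ddit3 (both 0.28), Pdia4 (0.27) and Hmgcs1 (0.26). Hspa5, Calr, Hsp90b1 and Pdia4 are chaperones or folding enzymes of the ER. The median gene stood at 0.01 and the 99th percentile at 0.16. The sum is not weighted, and of its 3367 UPM in beta cells Herpud1 gave 1513 and Creld2 546. The list therefore describes these genes more than the other members.

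**Figure D5:**
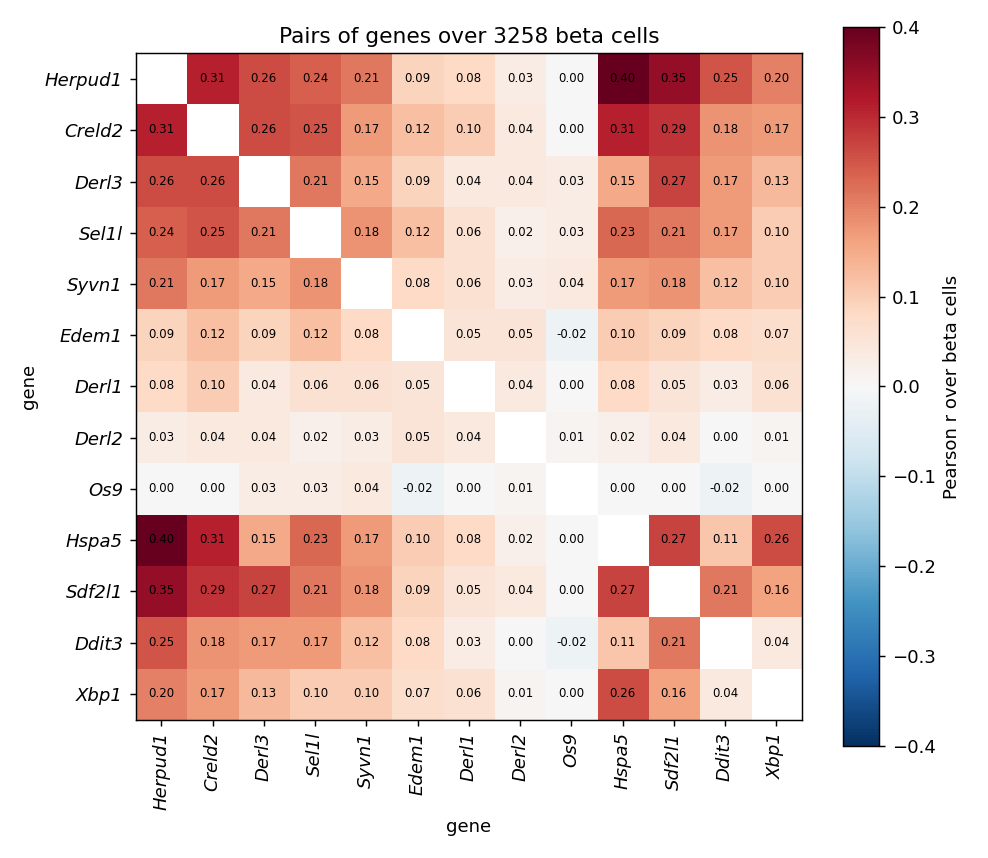
Pearson's r over 3258 beta cells between log2 levels of the 9 genes and of Hspa5, Sdf2l1, Ddit3 and Xbp1, in a colour scale from -0.4 to 0.4. Herpud1 with Hspa5 is the highest pair (0.40), and the rows of Derl2 and Os9 stay near 0.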

How the data were processed

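UMI counts per gene and barcode, not normalised and over unfiltered barcodes, were deposited by the authors, per the file headers. FastQC, Trimmomatic and mm10 are listed, with no versions, per the submitters' processing notes. Aligner, counter and annotation were not given in the sources used here. Barcodes of at least 5610 UMIs and 500 genes were kept, 3 of 4550 failing the gene limit. No doublet caller was run, and the 63 cells over several hormone limits were left out.

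Counts were summed per class and divided by UMIs outside 7 hormone genes. Levels have exact Poisson intervals and ratios exact conditional binomial intervals. A ratio past 1.5 was counted, among genes of at least 20 UPM on either side. Named genes were the members, the 2 highest and 2 lowest tested genes of further lists, Hspa5, Ddit3 and Xbp1, and the 10 genes most correlated with the members' sum (log2 of level per 10000 plus 1). For space, not every listed gene is printed in each comparison. Genes outside this rule (Mrpl49, Alg12 and the listed genes with a promoter match) were named after their values were seen. The macrophage-like and endothelial-like classes and the Hspa5 alternatives were chosen after the data were seen. Members and lists were chosen with earlier results of these data known. Thinning used seed 7. The ratio code was tested on simulated data. Python 3.11.15, numpy 2.4.6, scipy 1.17.1, pandas 2.3.3 and matplotlib 3.10.9 were used.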

Additional observations from a re-analysis of the deposited data

How the results depend on the processing

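The counts of members over 1.5-fold higher in beta than in alpha and PP cells stayed at 8 or 9 and at 7 or 8 of 9 under the 10 alternatives tried for each. Against delta cells the count moved from 8 to 4 over all UMIs, where Derl1 fell below 1 (0.973), and was 8 under the other 9. Among these alternatives, the removal of free RNA is no check of the counts, for the reason given above. In low-insulin over high-insulin cells the count of 1 became 9 over all UMIs, 3 with free RNA removed, 2 with the low side at 30 to 35%, and 0 among cells of at most 40000 UMIs, with the high side at 50% or more, within 5000 to 10000 non-hormone UMIs and within 2 to 4% mitochondrial UMIs. The cause was not tested, apart from the change of base, which by construction moves all ratios alike. Between the highest and lowest Hspa5 groups the count of 4 became 1 within 45 to 55% insulin and lay between 3 and 5 under the other 7 alternatives, all added after the data were seen. Where no share over all genes is printed for an alternative, its count is not read as a result about the members. Counts are low in the small classes (34 Derl3 UMIs in delta, 13 in endothelial-like and 9 in macrophage-like cells). The Derl3 ratio of beta over delta cells was 3.41 over all UMIs and 30.2 with free RNA removed. No paired analysis was possible because each group has 1 library. Leaving out a replicate was not possible for the same reason.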

Other observations

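Derl3 stood higher in droplets of at most 200 UMIs (204 UPM, 192 to 217) than in any of the 6 cell classes, of which beta cells were highest (173, 169 to 177). Creld2 was level between the droplets and beta cells (545 and 546), and the other 7 members were lower in the droplets, with Sel1l at 325 against 425 and Derl2 at 87.8 against 111. Beside this, 7 acinar cell markers, of which Amy2a5 was at 0, made up 0.0386% of the droplets' UMIs and 0.00193% of those of beta cells. The part of such cells in the Derl3 level was not tested.

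At the other end of the 3583 genes correlated with the members' sum over beta cells stood Cd63 (-0.26), Ppia (-0.25), Chga (-0.23), Fos and Atpif1 (both -0.22), named after their values were seen. Fos and Jund, which both encode subunits of the AP-1 transcription factor, thus lay at opposite ends (-0.22 and 0.29).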
